A study of Mus musculus with 28 samples.

Results

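The immunity related GTPases (IRGs) are a family of interferon-inducible GTP-binding proteins of the mouse, and 9 genes annotated to it were followed here: Irgm1, Irgm2, Igtp, Tgtp1, Tgtp2, 9930111J21Rik2, Iigp1, Gm4841 and Gm4951. They were chosen by name, and 9 of 9 have values in both expression tables, which hold 12721 and 12948 genes. The cells are MC38, an established mouse colon adenocarcinoma line of C57BL/6 origin, without any genetic change named in the labels. The in vitro table has 10 libraries, 2 for each of these: TNF, IFNG (interferon gamma), TNF plus IFNG, supernatant from a co-culture, and no treatment. The co-culture table has 9 libraries, 3 for each of these: MC38 with OT1 T cells under anti-PD1 antibody, MC38 with OT1 T cells under isotype antibody, and MC38 alone. OT1 T cells carry a transgenic receptor for an ovalbumin peptide, and PD1 is an inhibitory receptor of T cells. Cytokine and T cell exposure lasted 6 hours, per the series' design text, and no time is recorded for the supernatant. Whether replicates were separate cultures is not in the labels, and p-values here describe the spread among the libraries, which may be technical.

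IRG proteins are best known from mouse cells infected with vacuolar pathogens such as Toxoplasma gondii and Chlamydia trachomatis. IFNG acts through its receptor and JAK kinases, and cells then make large amounts of the effector IRGs, among them the products of Iigp1 (Irga6) and Tgtp1 and Tgtp2 (Irgb6), which bind GTP, gather on the vacuole membrane and help to break it. The regulators Irgm1, Irgm2 and Igtp (Irgm3) sit on the cell's own membranes, keep the effectors in their inactive GDP-bound state there and also take part in autophagy.

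The class of an IRG can be read from the codon at 1 position of its nucleotide-binding P-loop, where effectors carry lysine (GKS) and regulators carry methionine (GMS). The stretch of 8 codons around that position is shown for the 6 genes of chromosome 11, 5′ to 3′ on the coding strand, from the GENCODE M21 transcripts (GRCm38), with the deciding codon in capitals.
Irgm1: ggggactctggcaatggcATGtca
Irgm2: ggggactctggcaatggcATGtca
Igtp: ggggactctggcaatggcATGtca
Tgtp1: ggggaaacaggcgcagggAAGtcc
Tgtp2: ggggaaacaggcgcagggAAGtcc
9930111J21Rik2: ggggagactggggctggaAAGtcc
These lie at chr11:48866761-48866784 (Irgm1, minus strand), chr11:58219695-58219718 (Irgm2, plus), chr11:58206275-58206298 (Igtp, plus), chr11:48987667-48987690 (Tgtp1, minus), chr11:49059534-49059557 (Tgtp2, minus) and chr11:49039544-49039567 (9930111J21Rik2, minus). All 24 bases were identical in the 3 regulators, although the coding sequences of Irgm2 and Igtp matched at only 69.28% of aligned bases. Tgtp1 and Tgtp2 differed at 4 of 1245 coding bases and at 0 residues. The reading frame of 9930111J21Rik2 has 844 codons with 2 P-loop matches, and the other 8 members have 406 to 423 codons with 1 match each. Iigp1, Gm4841 and Gm4951 also had the GKS class, so 3 members are regulators by this codon and 6 are not.

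RefSeq promoter sequences (GRCm38.p6, from 250 bases before to 50 after the gene's start) were at hand for these same 6 genes. They were searched on both strands for GAS, the gamma-activated site (TTCNNNGAA), for ISRE, the interferon-stimulated response element (GAAANNGAAA), and for the kB motif of NF-kB. GAS letters were in 4 of the 6 and in 8.30% of all 32851 promoters of the table, ISRE letters in 5 of the 6 and in 3.44% of all, both in 4 of the 6 and in 0.454% of all, and kB letters in 0 of the 6 and in 8.46% of all. The stretch around the matches is shown for the 5 genes that had one, with GAS and ISRE letters in capitals. Each is written in the gene's direction and ends before its RefSeq start.
Irgm1: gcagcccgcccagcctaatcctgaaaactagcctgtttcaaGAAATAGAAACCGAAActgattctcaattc
Irgm2: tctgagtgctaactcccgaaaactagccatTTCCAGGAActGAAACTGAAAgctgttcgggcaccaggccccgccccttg
Igtp: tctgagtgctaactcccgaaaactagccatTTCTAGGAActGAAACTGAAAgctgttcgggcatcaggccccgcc
Tgtp1: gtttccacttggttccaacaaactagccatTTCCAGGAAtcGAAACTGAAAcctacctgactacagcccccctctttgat
Tgtp2: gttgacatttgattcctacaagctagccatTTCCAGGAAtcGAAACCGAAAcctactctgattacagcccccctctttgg
The positions are chr11:48871421-48871491 (Irgm1, minus strand), chr11:58214872-58214951 (Irgm2, plus), chr11:58199481-58199555 (Igtp, plus), chr11:48992285-48992364 (Tgtp1, minus) and chr11:49064244-49064323 (Tgtp2, minus). In Irgm2, Igtp, Tgtp1 and Tgtp2 the GAS letters were followed after 2 bases by the ISRE letters. The GAS started 75, 45, 88 and 81 bases before the gene's RefSeq start. GENCODE M21 places the starts of Irgm2 (chr11:58199618), Tgtp1 (chr11:48994172) and Irgm1 (chr11:48871683) further upstream. The stretches shown for these genes therefore lie inside their GENCODE gene models. Across the 32851 promoters this GAS and ISRE arrangement was found in 5 (0.0152%), those of Irgm2, Igtp, Tgtp1 and Tgtp2 and that of Gm12185, another IRG gene. The GENCODE start of Gm12185 (chr11:48992226, minus strand) lies inside the Tgtp1 promoter that was searched (chr11:48992197-48992496, minus). The 2 genes also share 223 exonic bases on the same strand. The Gm12185 match may therefore be the same DNA as that of Tgtp1, counted again. The arrangement was defined after the members' promoters had been read, and the genes are related copies, so this is a description of sequence and not a test. Irgm1 had 2 ISRE matches that overlap each other and no GAS match, and 9930111J21Rik2 had neither.

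**Figure D1:**
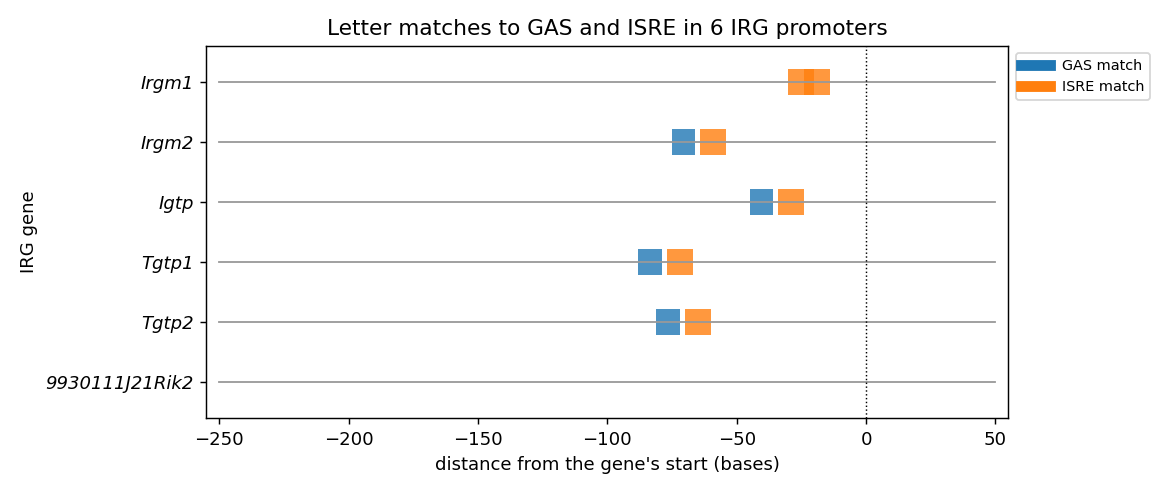
Positions of GAS (blue) and ISRE (orange) letter matches in the promoters of 6 IRG genes. Each promoter runs from 250 bases before to 50 after the gene's RefSeq start (dotted line). In Irgm2, Igtp, Tgtp1 and Tgtp2 a GAS match is followed after 2 bases by an ISRE match, Irgm1 has 2 overlapping ISRE matches, and 9930111J21Rik2 has no match.

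Libraries were made from the 3′ end of transcripts with the QuantSeq kit. The deposited values are on a log2 scale of CPM (read counts scaled to a common library total) and were normalized further by the authors. The lowest value was -3.91498 in both IFNG libraries, although they imply 11200000 and 7950000 reads. Libraries of a table hold nearly the same set of values, so a value follows a gene's rank in its library and is not a scaled count alone. The tables were normalized separately, so levels are set side by side only within a table. The number of distinct values below a library's median, over the CPM at that median, implies 3730000 to 11000000 reads per co-culture library. In vitro it implies 3360000 to 11200000 reads per library. This estimate takes each distinct value as 1 more read and is approximate. No title of the co-culture libraries used names OT1, which comes from their descriptions. The OT1 samples not analysed here include 6 whose titles name both MC38 and OT1, so the titles do not settle which cells each set holds. The third anti-PD1 library is labelled untreated in its title and treatment field and was placed by its description, and the second isotype library is described with OT2. The third library of MC38 alone held T cell transcripts: Ptprc (CD45) stood at 8.90 CPM there, against 0.168 and 0.324 CPM in the other 2 libraries of MC38 alone, and Gzmb (granzyme B) at 10.6 CPM, against 0.168 and 0.416 CPM. Its Ptprc lay inside the 3.79 to 9.45 CPM of the 6 co-culture libraries, while its Ifng, 3.60 CPM, lay below their 77.0 to 101 CPM. Co-culture results are therefore given with and without that library, the first anti-PD1 library and the third anti-PD1 library. Of 10 colon epithelial markers, 5 have values in the co-culture table, with a sum of 2.81 to 33.3 CPM with anti-PD1 and 1.61 to 8.23 CPM with isotype, against 2.65 to 11.9 CPM in MC38 alone. The first anti-PD1 library stood apart in this list, with Cdh1 at 21.7 CPM. In vitro 1 of the 10 has values, Cdh1, at 0.259 to 7.85 CPM.

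IFNG raised 9 of 9 IRG transcripts over untreated MC38 cells (limma on all groups of the table, Benjamini-Hochberg adjusted p under 0.05 over 12720 genes), where 0.354% of all genes passed in that direction. The median log2 change of the members was 5.14, against 0.04 over all genes tested. Because the libraries of a table hold nearly the same set of values, the median over all genes is held near 0, here and below. Changes ran from 3.48 for Irgm1 to 6.48 for Gm4841. Together the 9 genes held 418 and 446 CPM in the IFNG libraries, against 15.3 and 14.6 CPM in untreated libraries. TNF plus IFNG also raised 9 of 9, where 4.77% of all genes passed, and supernatant raised 9 of 9, where 0.448% passed. These comparisons share the untreated libraries.

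Among the regulators, Igtp stood at 6.54 and 6.48 log2 CPM with IFNG, 6.49 and 6.40 with TNF plus IFNG and 6.35 and 6.73 with supernatant, against 1.83 and 1.94 in untreated cells. The 6 libraries given IFNG or supernatant lay close together and far above the untreated pair. Its log2 change with IFNG was 4.62 ± 0.19 (SE, n = 2 libraries a group), a 24.6-fold rise (adjusted p = 1.49e-05). Irgm2 had 6.09 and 6.42 log2 CPM with IFNG, 5.32 and 6.29 with TNF plus IFNG and 6.91 and 5.66 with supernatant, against 1.63 and 0.99 in untreated cells. Its replicates were further apart than those of Igtp, and the groups still did not overlap with untreated cells. The change with IFNG was 4.95 ± 0.44 (30.8-fold, adjusted p = 0.00111). Irgm1 was at 4.99 and 5.11 log2 CPM with IFNG, 4.70 and 3.95 with TNF plus IFNG and 5.19 and 5.03 with supernatant, against 1.40 and 1.74 in untreated cells. Its log2 changes were 3.48 ± 0.26 with IFNG (11.1-fold, adjusted p = 4.24e-04), 2.76 ± 0.26 with both cytokines (6.76-fold) and 3.54 ± 0.26 with supernatant (11.6-fold). These were the lowest estimates of the 9, within the error of 9930111J21Rik2, which fell below Irgm1 with a pseudocount of 1 (2.25 beside 3.10 with IFNG). Igtp and Irgm2 share 162 exonic bases in the annotation, none of them in the last 500 bases of either gene's transcript, the end that these libraries read.

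Among the effectors, Iigp1 was at 6.48 and 6.43 log2 CPM with IFNG, 5.99 and 6.19 with TNF plus IFNG and 6.68 and 6.49 with supernatant, against 1.01 and 1.06 in untreated cells. Replicates lay close together in each of these groups, and the log2 change with IFNG was 5.42 ± 0.36 (42.8-fold, adjusted p = 1.90e-04). Tgtp1 had 5.35 and 5.58 log2 CPM with IFNG, 5.47 and 5.56 with TNF plus IFNG and 5.23 and 5.23 with supernatant, against 0.01 and 0.28 in untreated cells. Tgtp2 had 5.35 and 5.23 with IFNG, 5.46 and 5.52 with TNF plus IFNG and 5.25 and 5.22 with supernatant, against the same 0.01 and 0.28. The log2 changes with IFNG were 5.32 ± 0.24 for Tgtp1 and 5.14 ± 0.24 for Tgtp2 (39.9-fold and 35.3-fold, adjusted p = 2.05e-05 for both). The pair cannot be counted as 2 independent genes, since all 451 windows of 50 bases in the last 500 bases of one transcript are found in the other. How reads that match both were assigned by the authors could not be learned from the labels.

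The other 3 genes were very low in untreated cells. Gm4841 had 5.18 and 5.61 log2 CPM with IFNG, 5.28 and 4.93 with TNF plus IFNG and 5.20 and 5.27 with supernatant, against -1.30 and -0.87 in untreated cells. Its change with IFNG, 6.48 ± 0.31 (89.4-fold, adjusted p = 2.05e-05), was the highest estimate of the 9 (with a pseudocount of 1, 4.87 beside 4.86 for Iigp1) and rests on untreated values that lie on steps 2 and 4 above the lowest value of their libraries, which is about as many reads. Gm4951 had 3.40 and 3.34 log2 CPM with IFNG, 2.75 and 3.06 with TNF plus IFNG and 3.44 and 3.56 with supernatant, against -0.89 and -3.60 in untreated cells. The untreated value of -3.60 is the lowest of its library. Its change of 5.62 ± 0.74 with IFNG (adjusted p = 0.0139) has a 95% confidence interval of 3.93 to 7.31. 9930111J21Rik2 had 2.77 and 2.68 log2 CPM with IFNG, 2.99 and 2.04 with TNF plus IFNG and 2.52 and 2.84 with supernatant, against 0.01 and -1.80 in untreated cells. Its change with IFNG was 3.62 ± 0.57 (12.3-fold, adjusted p = 0.0432), close to the threshold. These last calls depend on the fit: 9930111J21Rik2 missed the threshold in 12 of 19 alternatives for IFNG and 13 of 19 for supernatant, and Gm4951 in 2 and 4 of 19, all with higher levels than in untreated cells.

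**Figure D2:**
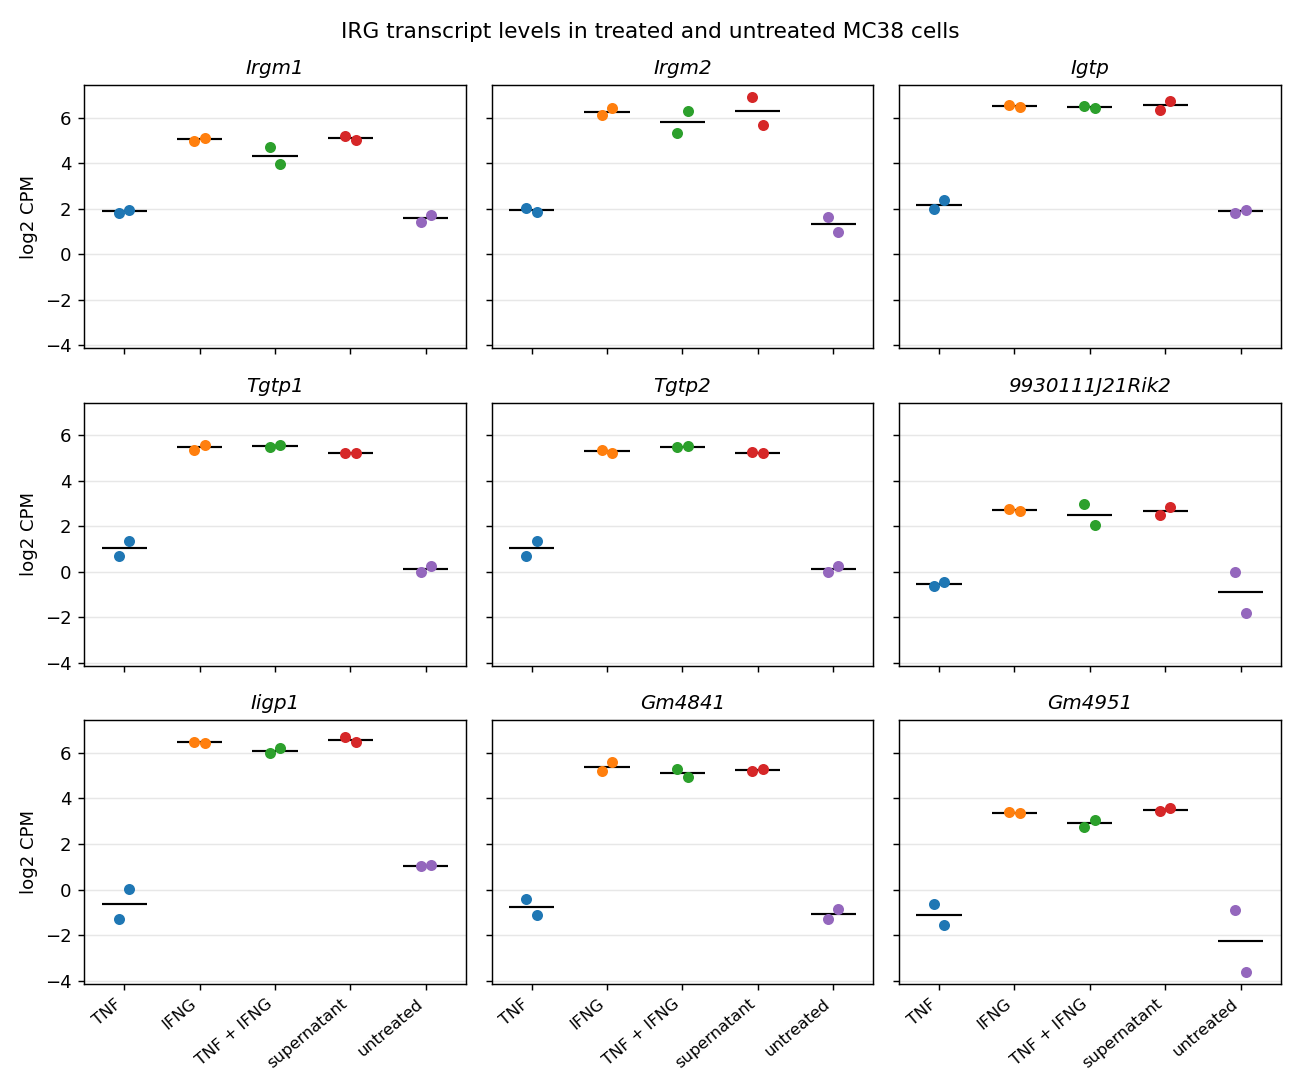
Level of each IRG transcript in every in vitro library (y axis, log2 CPM) by treatment group (x axis), with 2 points a group and a line at their mean. The groups with IFNG, TNF plus IFNG or supernatant lie above the untreated group for 9 of 9 genes. The mean of the TNF group lies much nearer to it, above it for 8 genes and below it for Iigp1 (log2 change -1.68).

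TNF alone changed 0 of 9 IRG transcripts at the threshold, where 0.275% of all genes passed in either direction. An unadjusted p under 0.05 was found for 3 of the 9, Iigp1, Tgtp1 and Tgtp2, and for 797 of all 12720 genes. Tgtp1 and Tgtp2 are not separate measurements here, since their values were identical in each TNF and untreated library. Tgtp1 and Tgtp2 both read 0.72 and 1.35 log2 CPM with TNF, against 0.01 and 0.28 in untreated cells, a log2 change of 0.89 ± 0.24 for each (adjusted p = 0.390 and 0.372). Iigp1 lay on the other side, at -1.30 and 0.01 log2 CPM with TNF, against 1.01 and 1.06 in untreated cells. Its log2 change of -1.68 ± 0.36 (95% confidence interval -2.49 to -0.88) had an adjusted p of 0.180, and the TNF values lie on steps 3 and 7 above the lowest value of their libraries, against 13 and 16 in untreated cells. The Iigp1 change was negative in all 19 alternatives, from -2.34 without the second TNF library, which leaves 1 TNF library, to -0.86 with a pseudocount of 1. Igtp had 2.00 and 2.36 log2 CPM with TNF, against 1.83 and 1.94 in untreated cells, and Irgm1 1.79 and 1.96, against 1.40 and 1.74. Irgm2 read 2.03 and 1.86 log2 CPM with TNF, against 1.63 and 0.99 in untreated cells. The log2 changes of Igtp, Irgm1 and Irgm2 with TNF were 0.29, 0.31 and 0.63, with intervals that include 0 (unadjusted p = 0.154, 0.271 and 0.187). Gm4841 read -0.40 and -1.11, Gm4951 -0.62 and -1.57 and 9930111J21Rik2 -0.62 and -0.44 log2 CPM with TNF, and each overlapped its untreated values given above. The 9 genes together held 17.3 and 20.3 CPM with TNF, against 15.3 and 14.6 CPM in untreated cells.

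Adding TNF to IFNG moved 0 of 9 members at the threshold relative to IFNG alone, where 0.236% of all genes passed in either direction. Of the 9 log2 changes 7 were negative, from -0.72 for Irgm1 to 0.21 for Tgtp2, with a median of -0.29 against -0.03 over all genes. Irgm1 had both TNF plus IFNG libraries below both IFNG libraries, with a log2 change of -0.72 ± 0.26 and an unadjusted p of 0.0227 (adjusted p = 0.311). The lower of its TNF plus IFNG values, 3.95 beside 4.70 log2 CPM, came from the second library, which had the fewest implied reads in vitro (3360000). Without that library its change over untreated cells was 3.13, and without the first it was 2.38, beside 3.48 with IFNG alone. The 95% confidence interval of the difference was -0.49 to 0.37 for Igtp and -2.16 to 1.23 for Gm4951. The interaction contrast, which sets the joint change against the 2 single changes added up, also called 0 of 9, where 0.0157% of all genes passed. Its estimates ran from -1.62 ± 1.05 for Gm4951 to 1.32 ± 0.50 for Iigp1, and 8 of 9 were negative (lowest adjusted p = 0.962). Their median was -0.68, against -0.04 over all genes. The estimates share the same libraries and include the close copies Tgtp1 and Tgtp2, so their signs are not independent of each other.

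The supernatant was set against the defined cytokines in the same way. Against IFNG alone it moved 0 of 9 members, where 0.00786% of all genes passed in either direction, and the 9 log2 differences ran only from -0.23 for Tgtp1 to 0.13 for Iigp1. The 95% confidence intervals were narrowest for Igtp, -0.40 to 0.46, and widest for Gm4951, -1.56 to 1.82. Against TNF plus IFNG it moved 0 of 9, where 0.236% passed, with log2 differences from -0.29 for Tgtp1 to 0.78 for Irgm1. For Irgm1 both supernatant libraries were above both TNF plus IFNG libraries (0.78 ± 0.26, unadjusted p = 0.0156, adjusted p = 0.217). The same low value in the second TNF plus IFNG library enters this difference. In vitro levels thus fell into a lower pair of groups, TNF and untreated, and an upper set of 3, IFNG, TNF plus IFNG and supernatant, and no member passed the threshold within either.

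**Figure D3:**
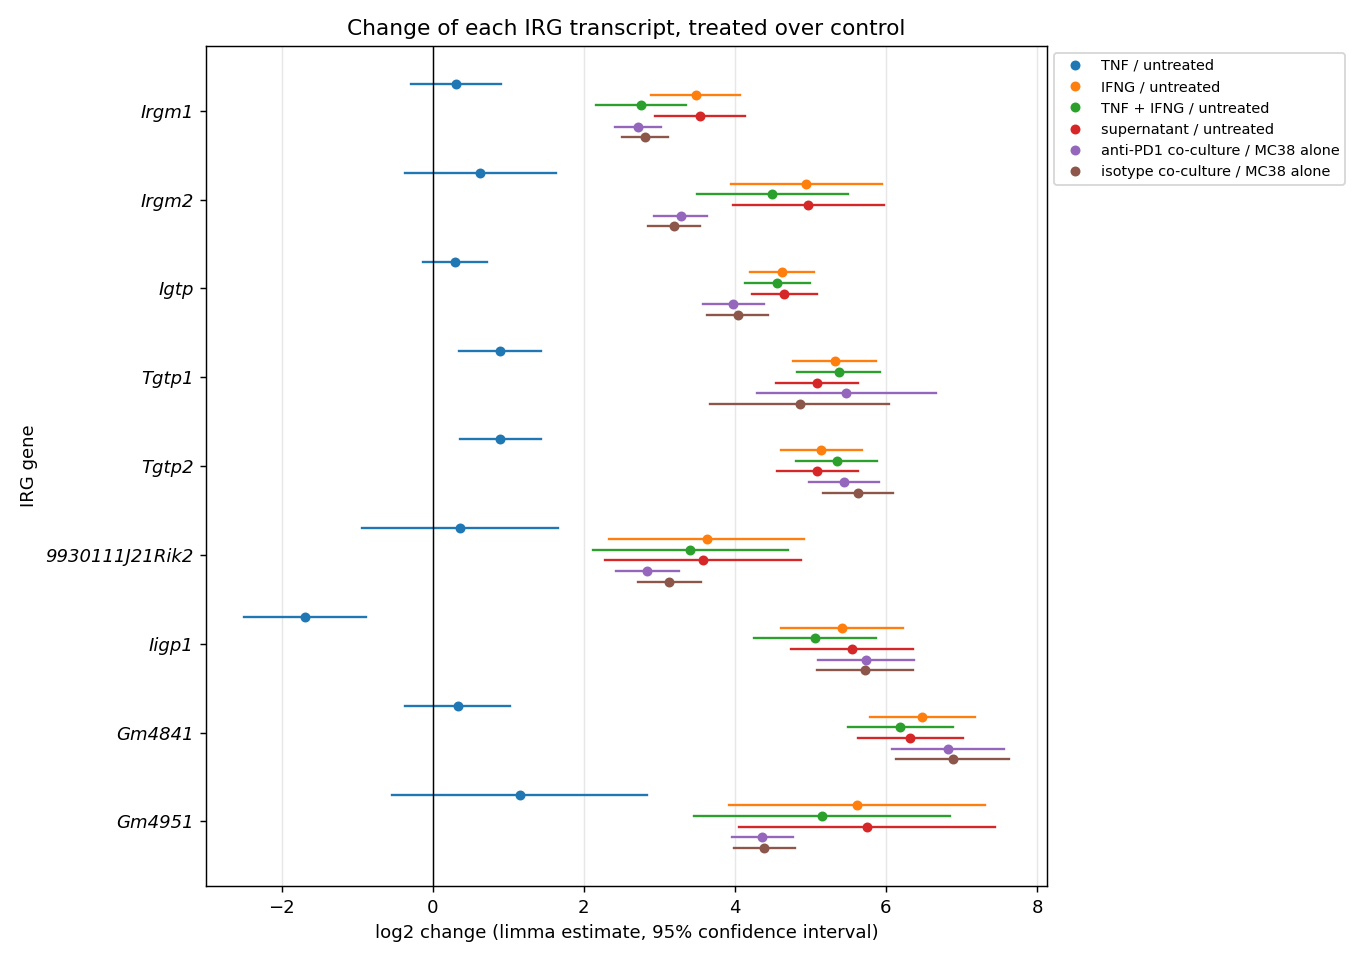
Log2 change of each IRG transcript against its control (x axis) with its 95% confidence interval from limma, for 4 treatments against untreated cells (n = 2 a group) and for the 2 co-cultures against MC38 alone (n = 3 a group). Apart from TNF, every interval lies above 0, and the intervals of Irgm1 and 9930111J21Rik2, the 2 lowest estimates in each of those 5 comparisons, overlap.

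In co-culture with OT1 T cells, 9 of 9 IRG transcripts were higher than in MC38 alone under both antibodies, at a background of 8.42% of genes called higher with anti-PD1 and 7.64% with isotype. The median log2 change was 4.36 with anti-PD1 and 4.39 with isotype, against -0.06 over all genes in both. The 9 genes together held 1498 to 1682 CPM in the anti-PD1 libraries and 1508 to 1624 CPM in the isotype libraries, against 63.5 to 85.5 CPM in MC38 alone. Both comparisons share the 3 libraries of MC38 alone. T cell transcripts were also higher in co-culture in part: of the 11 of 14 T cell markers in the table, 3 rose with anti-PD1 (Cd2, Gzmb and Ifng) and 4 with isotype (the same and Cd8a), and Il2 had its highest value, 17.9 CPM, in MC38 alone. The summed level of the 11, most of it Ifng, was 148 to 160 CPM with anti-PD1 and 136 to 164 CPM with isotype, against 4.94 to 44.5 CPM in MC38 alone. In such bulk libraries the RNA of residual T cells and that of tumour cells cannot be told apart, nor can fewer cells of a type and less RNA per cell, and the part of T cells in the IRG levels was not tested. Of 6 fibroblast markers, 4 have values in the table (Col1a1 and Col1a2 are not among them), and their sum, most of it Col3a1, was 217 to 264 CPM with anti-PD1 and 242 to 266 CPM with isotype, against 344 to 366 CPM in MC38 alone. Of the 4, Thy1 did not follow the sum, at 3.03 to 4.76 CPM in co-culture, against 0.168, 0.416 and 3.60 CPM in MC38 alone. The part of the fibroblast and epithelial markers in the IRG levels was not tested. In vitro, 2 of the 14 T cell markers, Lck and Il2, have values, with a sum of 6.46 to 11.1 CPM with TNF, 4.53 to 7.10 CPM with IFNG, 16.3 to 18.1 CPM with TNF plus IFNG and 1.11 to 1.78 CPM with supernatant, against 3.35 to 3.46 CPM in untreated cells. Of the 2, Il2 rose with TNF plus IFNG, by 2.56 ± 0.36 on the log2 scale (adjusted p = 0.00967).

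Irgm1 was at 6.17, 6.16 and 5.95 log2 CPM with anti-PD1 and 6.25, 6.07 and 6.25 with isotype, against 3.18, 3.37 and 3.57 in MC38 alone. The log2 change was 2.72 ± 0.14 (SE, n = 3 libraries a group) with anti-PD1 and 2.81 ± 0.14 with isotype, or 6.59-fold and 7.03-fold (adjusted p = 6.12e-07 and 5.30e-07). With a pseudocount of 1 the anti-PD1 change was 2.61, beside 2.55 for 9930111J21Rik2. Irgm2 had 7.60, 7.70 and 7.53 log2 CPM with anti-PD1 and 7.60, 7.31 and 7.65 with isotype, against 4.36, 4.03 and 4.61 in MC38 alone. Its co-culture libraries all lay above its libraries of MC38 alone, and the changes were 3.28 ± 0.16 with anti-PD1 and 3.19 ± 0.16 with isotype. Igtp read 7.88, 7.72 and 7.66 log2 CPM with anti-PD1 and 7.79, 7.91 and 7.74 with isotype, against 3.32, 3.88 and 4.13 in MC38 alone. It rose by 3.98 ± 0.18 and 4.04 ± 0.18 on the log2 scale, or 15.8-fold and 16.4-fold.

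Iigp1 reached 9.16, 9.05 and 8.95 log2 CPM with anti-PD1 and 8.98, 9.14 and 9.01 with isotype, against 2.75, 3.05 and 4.15 in MC38 alone. The highest of its control values came from the third library of MC38 alone, the one with T cell transcripts. The log2 change was 5.74 ± 0.29 with anti-PD1 and 5.73 ± 0.29 with isotype (53.3-fold and 53.0-fold, adjusted p = 6.12e-07 and 6.47e-07), and 6.14 with isotype when that library was left out. Gm4841 had 7.37, 7.19 and 7.16 log2 CPM with anti-PD1 and 7.57, 7.16 and 7.18 with isotype, against -0.52, 1.08 and 0.69 in MC38 alone. Its rise was the highest estimate of the 9 here as well, 6.82 ± 0.33 with anti-PD1 and 6.88 ± 0.33 with isotype (113-fold and 118-fold), over control values on steps 5, 16 and 5. Gm4951 had 4.96, 4.93 and 4.97 log2 CPM with anti-PD1 and 4.87, 5.17 and 4.90 with isotype, against 0.66, 0.81 and 0.29 in MC38 alone, a change of 4.36 ± 0.18 and 4.39 ± 0.18. Where its in vitro change had an interval over 3 log2 units wide, the co-culture interval with isotype was 3.99 to 4.80. 9930111J21Rik2 had 4.95, 4.71 and 4.61 log2 CPM with anti-PD1 and 5.29, 5.16 and 4.70 with isotype, against 1.76, 2.04 and 1.95 in MC38 alone. It rose 7.17-fold with anti-PD1 and 8.77-fold with isotype (adjusted p = 4.95e-06 and 2.57e-06).

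Tgtp1 and Tgtp2 followed each other in all libraries but 1. Tgtp2 read 7.57, 7.37 and 7.47 log2 CPM with anti-PD1 and 7.73, 7.56 and 7.65 with isotype, against 2.58, 1.64 and 1.85 in MC38 alone. Tgtp1 read 7.56, 7.36 and 7.47 with anti-PD1 and 5.34, 7.56 and 7.63 with isotype, against 2.65, 1.47 and 1.85 in MC38 alone. In the first isotype library Tgtp1 thus lay 2.39 log2 units, or 5.24-fold, below Tgtp2, while the largest distance in the other 18 of 19 libraries of both tables was 0.35, and 6 libraries had identical values. That library widened the error of Tgtp1: its log2 change with isotype was 4.86 ± 0.53 (adjusted p = 1.85e-04), beside 5.63 ± 0.21 for Tgtp2 (adjusted p = 8.90e-08). The Tgtp1 difference between anti-PD1 and isotype, 0.62 with the library, was -0.14 without it. With the 2 copies summed, and likewise Igtp and Irgm2, 7 of 7 rows passed the threshold in each of the 5 comparisons in which 9 of 9 members had passed.

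**Figure D4:**
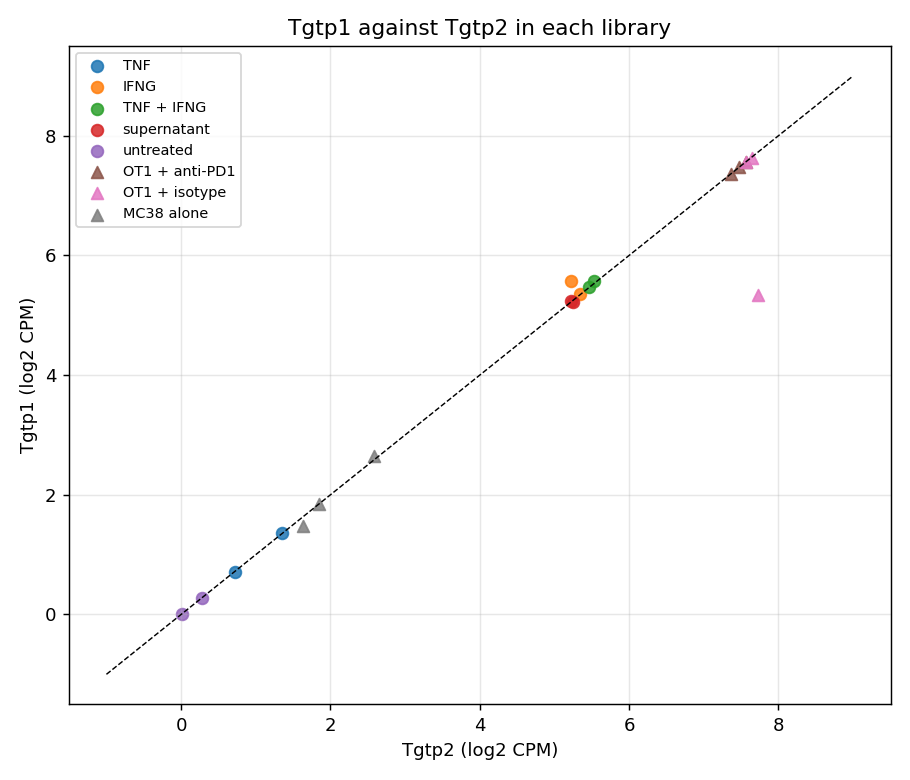
Level of Tgtp1 (y axis) against Tgtp2 (x axis) in log2 CPM for 19 libraries, circles for the in vitro table and triangles for the co-culture table, with a dashed line of equal values. All points lie within 0.5 of the line except the first isotype library, where Tgtp1 is 2.39 lower.

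The 9 calls were the same in number without the libraries in doubt. Leaving out the third library of MC38 alone kept 9 of 9 called, with log2 changes from 2.82 to 6.96 for anti-PD1 and 2.91 to 7.02 for isotype. Leaving out the third anti-PD1 library kept 9 of 9 for anti-PD1 against MC38 alone, with changes from 2.79 to 6.86, and leaving out the first, the one high in Cdh1, kept 9 of 9 with changes from 2.68 to 6.75. Between the antibodies, 0 of 9 members passed the threshold, where 0% of all genes did and 347 of 12707 had an unadjusted p under 0.05, none of them a member. Differences of anti-PD1 from isotype ran from -0.29 for 9930111J21Rik2 to 0.62 for Tgtp1 (-0.22 to 0.62 and 0 of 9 called without the third anti-PD1 library), and apart from Tgtp1 the 95% confidence intervals lay between -0.81 and 0.68. For Irgm1 and Irgm2, the best measured members, the intervals were -0.40 to 0.21 and -0.26 to 0.44.

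**Figure D5:**
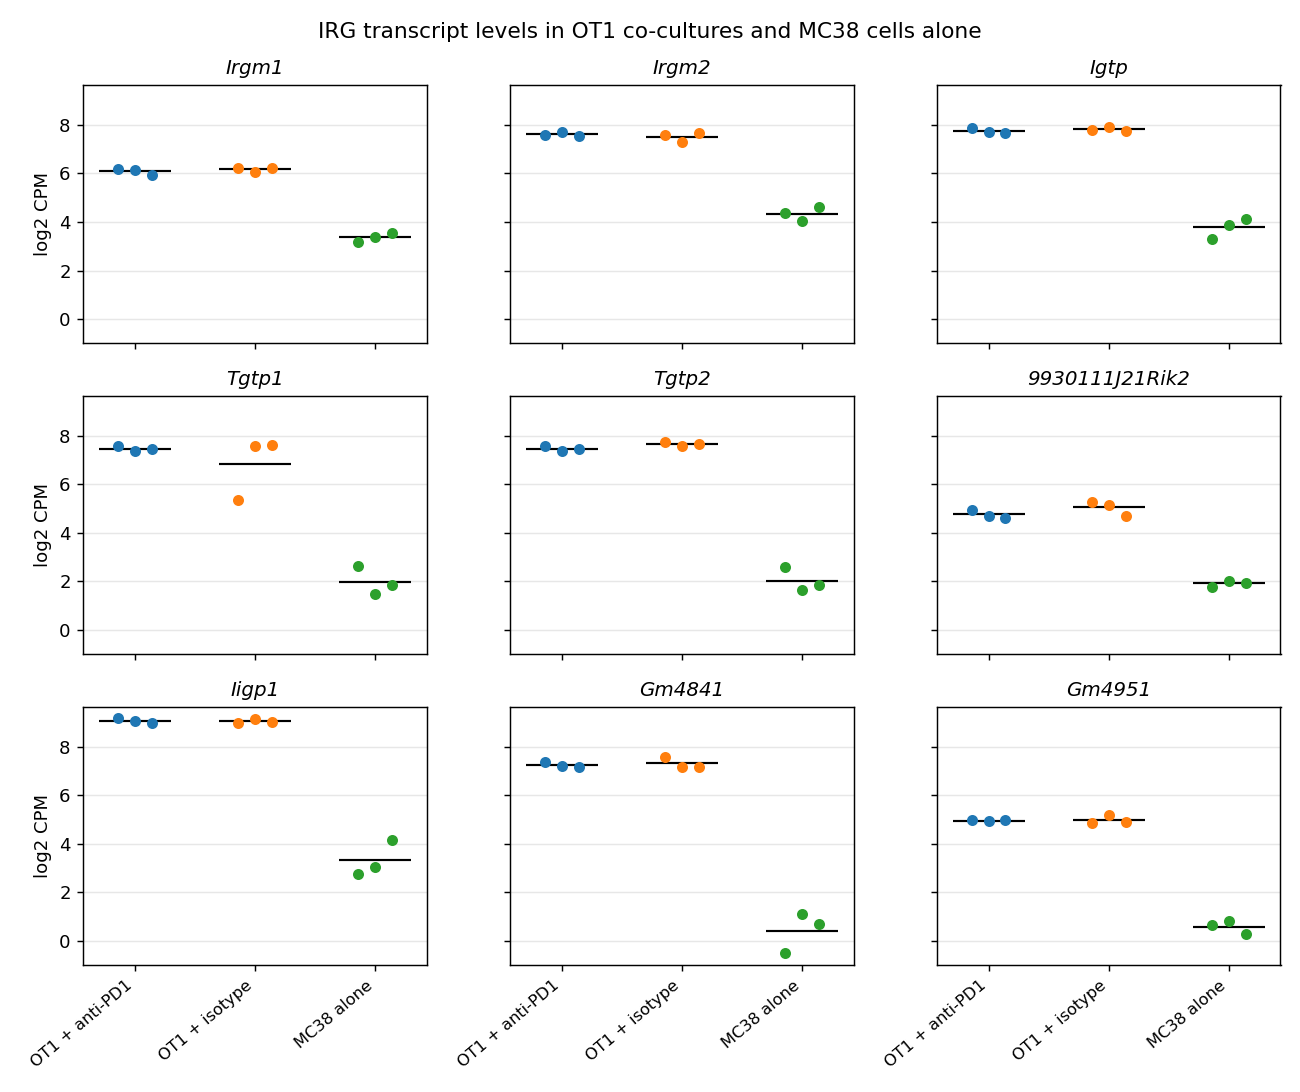
Level of each IRG transcript in every co-culture library (y axis, log2 CPM) by group (x axis), with 3 points a group and a line at their mean. Both co-cultures lie above MC38 alone for 9 of 9 genes and overlap each other except in the first isotype library for Tgtp1, which is low.

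By position the members form 3 clusters in GENCODE M21 (GRCm38). Irgm1, Tgtp1, 9930111J21Rik2 and Tgtp2 lie within 202 kb at chr11:48861968-49064206, all on the minus strand, and Igtp and Irgm2 within 23.2 kb at chr11:58199556-58222782, both on the plus strand. Gm4951, Gm4841 and Iigp1 lie within 181 kb at chr18:60212080-60392634. In the first cluster, the log2 change with IFNG was 3.48 ± 0.26 for Irgm1 and 5.32 ± 0.24 for Tgtp1, and in the last, 5.42 ± 0.36 for Iigp1 and 6.48 ± 0.31 for Gm4841, and differences between neighbours were not tested. By P-loop class, the 3 GMS regulators had IFNG changes of 3.48, 4.95 and 4.62, and the 6 GKS genes 3.62 to 6.48.

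Genes outside the 9 were looked at for context. Of the other IRG family genes listed, 2 of 4 tested rose with IFNG, 4 of 4 with TNF plus IFNG and 2 of 4 with supernatant, and 5 of 6 rose with anti-PD1 and 6 of 6 with isotype. Ifi47 (Irgd) was among them in all 5, with a log2 change of 3.27 ± 0.27 with IFNG (adjusted p = 8.06e-04) and 3.71 ± 0.19 with isotype (adjusted p = 7.09e-07), and Irgq had 1.32 ± 0.22 with isotype (adjusted p = 0.00275). Guanylate binding proteins, the larger interferon-inducible GTPases that act beside the IRGs, rose in 1 of 7 with TNF, 5 of 7 with IFNG, 6 of 7 with TNF plus IFNG and 5 of 7 with supernatant, and in 7 of 8 in each co-culture. Their median log2 change was 2.77 with IFNG and 3.51 with TNF plus IFNG, beside 5.14 and 5.06 for the IRGs. Gbp2b, the one raised by TNF, changed by 2.39 ± 0.32 on the log2 scale (adjusted p = 0.0225), and by 3.29 ± 0.32 with IFNG and 5.28 ± 0.32 with both.

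Upstream, 12 genes of IFNG signalling were tested: 1 rose with TNF, 4 with IFNG, 7 with TNF plus IFNG and 5 with supernatant. In co-culture 11 rose and 1, Jak1, fell with anti-PD1, and 10 rose with isotype. Irf1, a transcription factor that binds ISRE letters, changed by 3.06 ± 0.12 on the log2 scale with IFNG (adjusted p = 1.49e-05). Irf1 was the gene of this list that rose with TNF, by 2.47 ± 0.12 (adjusted p = 6.21e-05), where 0 of the 9 IRGs passed, and its interaction contrast was -2.08 ± 0.17 (adjusted p = 0.00492). The ATG8 conjugation genes, whose products (ATG5, ATG7, ATG16L1 and others) are needed in mouse cells for effector IRGs to load onto vacuoles, rose in 0 of 10 in every comparison. Map1lc3b was lower by 0.68 ± 0.13 with anti-PD1 and 0.71 ± 0.13 with isotype (adjusted p = 0.00559 and 0.00466), Atg12 was also called lower in both, and Atg16l1 was called lower with TNF plus IFNG. That is 2 of 10 in each co-culture and 1 of 10 with both cytokines, where 7.71% (anti-PD1), 6.22% (isotype) and 4.25% (TNF plus IFNG) of all genes were called lower.

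The 5 genes whose log2 changes lay nearest to the members' median over 6 comparisons with a control, of 12156 genes compared, were F830016B08Rik (root mean square difference 0.41), Olfr56 (0.57), Serpina3g (0.77), Batf2 (1.18) and Gm12250 (1.22). F830016B08Rik carries the RefSeq synonym Ifgga4 and Gm12250 the synonym Irgb10, so 2 of the 5 are IRG genes themselves. Olfr56, annotated as an olfactory receptor, shares 111 exonic bases on the same strand with the IRG gene Ifi47, none of them in the last 500 bases of either transcript, and its gene body spans Tgtp1 and Tgtp2 on the other strand, so its reads are uncertain. Serpina3g encodes a serine protease inhibitor and Batf2 a bZIP transcription factor, and their log2 changes with isotype were 4.61 ± 0.20 and 6.31 ± 0.20. Serpina3g missed the threshold with IFNG (3.88 ± 0.80, adjusted p = 0.156) and with supernatant (3.83 ± 0.80, adjusted p = 0.158), where the 9 members passed. Its estimates there were above those of Irgm1 (3.48 and 3.54) and 9930111J21Rik2 (3.62 and 3.57), with a larger SE. The members themselves lay 0.40 (Igtp) to 1.68 (Gm4841) from their median on this measure, so Batf2 and Gm12250 were no further from it than the outer members.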

How the data were processed

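The values are those the authors deposited, per gene on a log2 CPM scale, with nearly the same set of values in each library of a table. The unit was judged from the values, since their antilogs total 993229 to 998505 in a library. Per the submitters' processing notes, FastQC, cutadapt 1.7, HISAT2, featureCounts, Subread and limma were used with GRCm38 or mm10. Strand use and the treatment of reads with several matches are not given in the sources used here. Of 28 samples, 19 libraries were used, and 9 labelled OT1 were not analysed here.

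Each table was fitted whole with limma 3.58.1 (R 4.3.3, empirical Bayes with trend) on genes reaching log2 CPM 0 in 2 libraries in vitro or 3 in co-culture (12720 and 12707 genes tested; all 9 members passed). P-values are 2-sided, adjusted by Benjamini-Hochberg over all genes tested, with a threshold of 0.05, and error is limma's SE. The median 95% confidence interval half-width was 0.59 log2 units in vitro and 0.49 in co-culture. Sequences come from GENCODE M21 and RefSeq, read with Python 3.11.15. Named are all members, up to 4 of the largest called genes of each other list, and the 5 genes nearest to the members' median change; Jak1, Irgq and the marker genes were named after their values were seen. Members and lists were chosen with earlier results of these data known. Alternatives were other filters, a pseudocount of 1, housekeeping scaling, no trend, only the compared groups, library weights, a replicate block, summed copies and leaving out each library.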

Additional observations from a re-analysis of the deposited data

How the results depend on the processing

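Of the 11 counts of members past the threshold, 10 stayed within 1.5 times of their value under 19 alternatives in vitro and 18 in co-culture, and no change that was called turned its sign. The exception was TNF against untreated, with 0 to 1 members called when single libraries were left out, the 1 being Iigp1 without the second TNF library. The counts of 9 for IFNG and supernatant ran down to 7 of 9 when single libraries were left out, as did those for supernatant and TNF plus IFNG with only the compared groups in the fit, through 9930111J21Rik2 (adjusted p up to 0.298 for IFNG and 0.272 for supernatant) and Gm4951 (up to 0.126 and 0.141). Both lie at a few reads in untreated cells, and the Gm4951 change with IFNG ran from 3.14 (pseudocount of 1) to 6.97 (without the first untreated library). The replicate numbers did not pair the libraries (correlation of same-numbered deviations -0.29 to 0.09 over 10 pairs in vitro and -0.07 to 0.10 over 9 in co-culture). With the replicate block, 9 of 9 members passed for TNF plus IFNG and for both co-cultures, and 8 of 9 for IFNG and supernatant. Housekeeping scaling moved the median of all genes by 0.21 (isotype), 0.26 (anti-PD1) and about 0.10 (IFNG, TNF plus IFNG and supernatant) log2 units, and the members' changes with isotype then ran from 3.03 to 7.10. Over all genes, the number called for TNF plus IFNG against untreated was 1147 and ran from 88 (without the second untreated library) to 2155 (without the first supernatant library), that for TNF plus IFNG against IFNG was 30 and ran from 3 to 270, and that for supernatant against TNF plus IFNG was 30 and ran from 4 to 486. The shares of all genes printed beside the members' counts move with them.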
